A study of Mus musculus with 4 samples.

Results

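The genes described here encode glycoproteins that fibroblasts secrete into the extracellular matrix and the lysyl oxidases that crosslink it: *Fn1*, *Tnc*, *Sparc*, *Postn*, *Thbs2*, *Fbn1*, *Eln*, *Lox*, *Loxl1* and *Loxl2*. They were chosen by gene symbol from the table of transcripts, and every transcript that the table holds for them was used. Of these 10 genes, 9 had at least 1 transcript in the table, 20 transcripts in all among 34200 transcripts of 21945 genes. *Postn* had 0 and is not described further. NIH/3T3 cells, an immortalised line of mouse fibroblasts, were transfected with Scrambled siRNA (WT) or with *Setd2*-specific siRNAs (KD), each at 10 nM, and polyadenylated RNA was sequenced after 48 h from 2 libraries per group. Both groups carried the transfection reagent, and the *Setd2* siRNAs were given together, so that they cannot be told apart. SETD2 is the methyltransferase that places H3K36me3 on transcribed genes, and the comparison asks how far the RNA of matrix genes differs once this enzyme is depleted.

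Fibronectin is secreted as a dimer and is pulled into fibrils by integrins on the cell surface, and these fibrils serve as a template for other matrix proteins. Tenascin-C, SPARC and thrombospondin-2 are matricellular proteins, which modulate adhesion and matrix assembly more than they bear load. Fibrillin-1 forms the microfibrils on which elastin is laid down, and lysyl oxidases oxidise lysine residues of collagen and elastin so that crosslinks can form.

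Alternative exons set several of these transcripts apart, and the segments concerned are shown because the results on *Fn1* and *Tnc* were obtained isoform by isoform. Sequences are from the GENCODE M21 transcripts of GRCm38, all on the minus strand and written 5′ to 3′ as in the mRNA. Capitals mark the segment that is present in some transcripts and absent from others, and the 12 bases on either side are its neighbours in the spliced mRNA. The EDB and EDA exons of *Fn1*, at chr1:71613763-71614035 (273 bases) and chr1:71603660-71603929 (270 bases), each encode a fibronectin type III repeat. The V region is trimmed at its start by alternative splice acceptors, and the first 75 bases (chr1:71597673-71597747) encode CS1, a binding site for α4 integrins. The alternative exon of *Tnc* (chr4:63984460-63984732, 273 bases) also encodes a type III repeat. The lengths of all 4 segments are multiples of 3.
Fn1 EDB exon: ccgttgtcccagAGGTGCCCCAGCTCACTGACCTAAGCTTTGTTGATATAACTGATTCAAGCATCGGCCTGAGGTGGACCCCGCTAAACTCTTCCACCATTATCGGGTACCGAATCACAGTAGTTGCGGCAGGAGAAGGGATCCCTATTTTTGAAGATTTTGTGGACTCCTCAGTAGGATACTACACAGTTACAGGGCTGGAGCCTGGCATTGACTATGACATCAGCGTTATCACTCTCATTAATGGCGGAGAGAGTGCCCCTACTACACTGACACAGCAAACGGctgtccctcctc
Fn1 EDA exon: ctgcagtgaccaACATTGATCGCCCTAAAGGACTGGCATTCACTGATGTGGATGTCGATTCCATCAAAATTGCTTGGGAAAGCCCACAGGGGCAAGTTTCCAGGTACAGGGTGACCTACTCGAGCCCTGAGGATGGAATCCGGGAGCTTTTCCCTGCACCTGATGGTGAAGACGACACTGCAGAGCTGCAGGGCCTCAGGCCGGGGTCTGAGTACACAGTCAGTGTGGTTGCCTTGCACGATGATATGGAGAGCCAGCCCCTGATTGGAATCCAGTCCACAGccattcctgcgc
Fn1 start of the V region: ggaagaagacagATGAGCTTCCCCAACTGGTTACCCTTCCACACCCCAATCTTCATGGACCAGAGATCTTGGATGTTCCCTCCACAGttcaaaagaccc
Tnc alternative exon: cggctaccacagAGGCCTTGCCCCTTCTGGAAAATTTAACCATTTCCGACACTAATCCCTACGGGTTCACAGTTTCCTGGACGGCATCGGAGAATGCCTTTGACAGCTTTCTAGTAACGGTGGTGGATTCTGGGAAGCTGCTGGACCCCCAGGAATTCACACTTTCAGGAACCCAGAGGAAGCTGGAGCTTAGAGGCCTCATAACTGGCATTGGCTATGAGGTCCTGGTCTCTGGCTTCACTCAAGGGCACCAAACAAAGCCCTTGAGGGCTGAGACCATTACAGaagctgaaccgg

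Levels are given as normalised estimated counts, computed here from the authors' mean over the 4 libraries on the natural log scale, with the SD over the 4 libraries on the log2 scale. Values of single libraries were not analysed here, so the depth of each library is unknown and whether the libraries of KD and WT overlapped was not examined. The fibroblast label was checked on 9 marker genes, of which 8 had tested transcripts, with summed levels from 3082.5 (*Pdgfrb*) to 273156 (*Col1a2*). *Fap* had none. The markers of epithelial, endothelial, leukocyte and skeletal muscle cells that had tested transcripts reached at most 343 (*Cd68*).

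The matrix genes ranged from some of the most abundant RNAs of these cells to RNAs near the limit of detection. Summed over the transcripts of a gene and divided by their length, *Sparc* had the highest level (44995 per kb) and *Fn1* the next (40218 per kb), which placed them 143rd and 160th among all genes by level per kb. *Lox* followed with 14983 per kb, then *Thbs2* with 2916, *Loxl1* with 1605, *Tnc* with 709 and *Fbn1* with 423. *Loxl2* (16.2 per kb) and *Eln* (1.84 per kb) stood far below the others. The length of 1 *Lox* transcript, ENSMUST00000025409.7, was taken from the following version of its annotation. The median level of the 20 transcripts was 4776, against 155 for all transcripts tested.

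**Figure D1:**
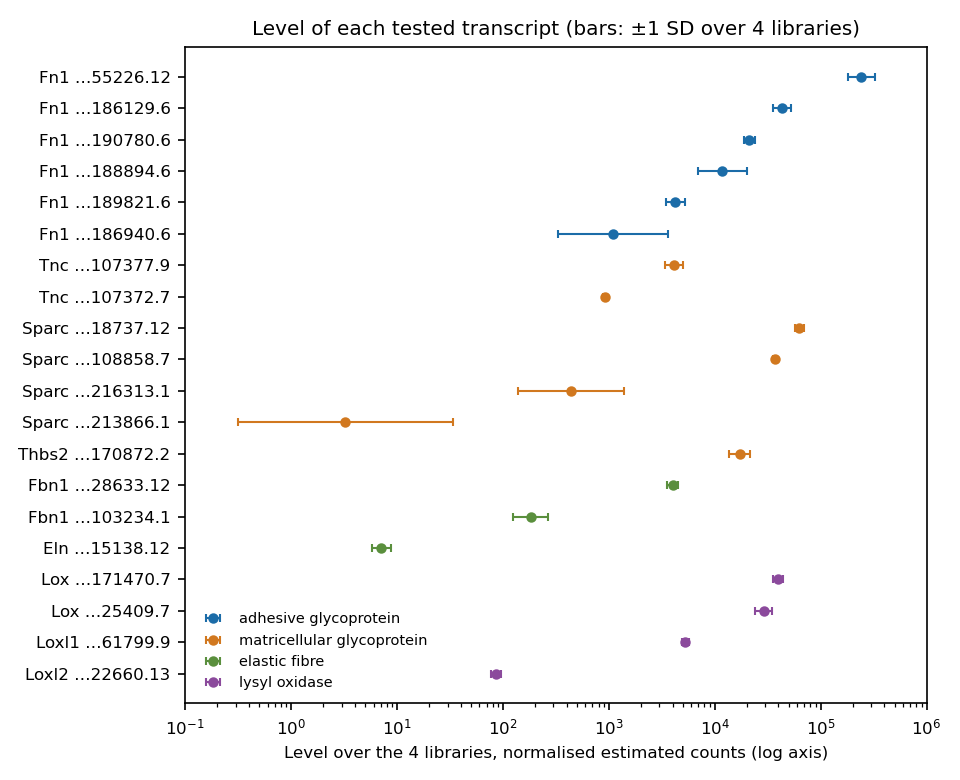
Level of each of the 20 transcripts over the 4 libraries (log axis, normalised estimated counts), with bars of 1 SD over the 4 libraries and colours for the role of the gene. The most abundant *Fn1* transcript lies at 241723, the *Eln* transcript at 7.10, and 2 minor *Sparc* transcripts and the short *Fn1* transcript have the widest bars.

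KD and WT were compared by the size of their difference. It was computed from the variance over all 4 libraries and the variance left within groups, and tested with limma's moderated test over all 34200 transcripts. Such a size has no sign: it tells how far apart the group means were on the log2 scale, not which group was higher. The columns with a direction hold the authors' own comparison and were not used. A size also cannot fall below 0, so noisy transcripts show sizes above 0 without any difference. Over the whole table, 9.68% of transcripts passed an adjusted p-value of 0.05. The transcript of *Setd2* itself differed by 1.99 (standard error 0.08, adjusted p = 0.0144 in limma's moderated test), or 3.98-fold, between a level of 3680.4 in 1 group and 923 in the other. Since its direction was not used, this does not check which libraries carried the knockdown. In RNA from whole cultures, a shift in the mix of cells and a shift of RNA per cell cannot be told apart.

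Of the 20 matrix transcripts, 3 passed the threshold (15.0%), 2 of *Fn1* and 1 of *Tnc*. Abundant transcripts pass more often. Among transcripts with a level of at least 1000, 3 of 14 matrix transcripts passed (21.4%), against 20.8% of all 9010 transcripts at that level, a share near the background. The median size over the 20 transcripts was 0.35, and it was 0.35 over all transcripts as well. At a level of at least 1000 the median size was 0.34 for the matrix transcripts and 0.25 for all transcripts, and the median within-group SD was 0.18 against 0.08. At a level of at least 100, 3 of 17 matrix transcripts passed (17.6%), against 15.6% of all transcripts at that level. When only transcripts at that level were tested, again 3 of 17 matrix transcripts passed (17.6%), against 26.4% of all. With a robust prior variance, 3 of the 20 passed, against 11.2% of all transcripts. Without the trend of the variance on expression, 0 of the 20 passed (0.371% of all transcripts), and in an ordinary F test without moderation 0 of the 20 as well (0.0292% of all). In limma's moderated test, 6 of the 20 had an unadjusted p-value under 0.05, against 28.2% of all transcripts.

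**Figure D2:**
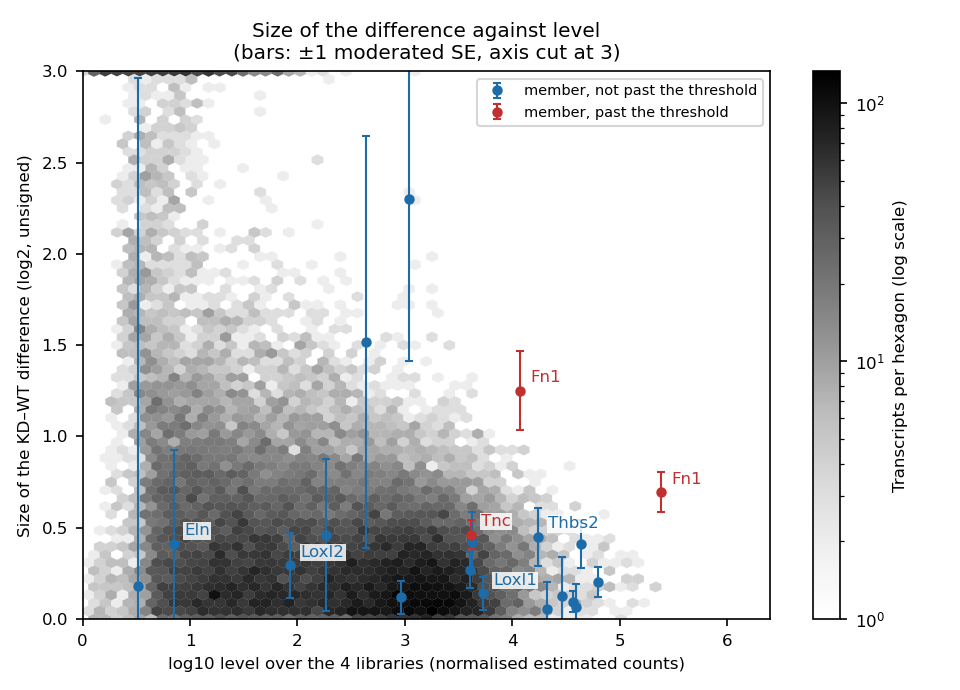
Unsigned size of the difference between KD and WT (log2) against level (log10 of normalised estimated counts), with all 34200 transcripts as grey hexagons and the 20 matrix transcripts as points with bars of 1 moderated standard error. The 2 *Fn1* transcripts past the threshold stand at 0.69 and 1.25 and the *Tnc* transcript at 0.46, and sizes above 3 are drawn at the upper edge.

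*Fn1* (chr1:71585524-71653175) had 6 tested transcripts, 5 of them long forms of 44 to 46 exons that differ in EDB, EDA and the V region. The most abundant, ENSMUST00000055226.12, carries EDB, EDA and the whole V region. With a level of 241723 (SD 0.42 on the log2 scale) it ranked 16th of all transcripts and held 74.8% of the summed level of the gene. The group means of this transcript were 307492 and 190022, a difference of 0.69 on the log2 scale (95% confidence interval 0.41 to 0.98, adjusted p = 0.0336 in limma's moderated test). The difference between the groups made up 92.3% of its variation over the 4 libraries.

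The other *Fn1* transcript past the threshold, ENSMUST00000188894.6, has EDA and the whole V region but not EDB. Its level was 11748 (SD 0.77), with group means of 18123 and 7616. The technical SD that the authors' quantification attached to this transcript was 0.17, against a within-group SD of 0.32. The size of ENSMUST00000188894.6, 1.25, was the largest of the matrix transcripts that passed (95% confidence interval 0.68 to 1.82, adjusted p = 0.0397 in limma's moderated test). Both forms that passed carry the EDA exon printed above, a feature that was picked out after their values were seen. Whether they differed in the same direction is not given by these sizes.

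The 3 long forms that lack both EDA and EDB did not pass. ENSMUST00000186129.6, with the whole V region, had a level of 43222 (SD 0.28) and a size of 0.41 (95% confidence interval 0.06 to 0.76, adjusted p = 0.131 in limma's moderated test). ENSMUST00000190780.6 lacks the 75 bases of CS1 and had a level of 21200 (SD 0.17). Its size was 0.05, the smallest of the 20 transcripts, with an interval that reached 0.45. ENSMUST00000189821.6 lacks 360 bases of the V region and had a level of 4260 (SD 0.31) and a size of 0.42, with an interval from −0.02 to 0.86. The intervals of ENSMUST00000186129.6 and ENSMUST00000189821.6 overlap those of both EDA forms. That of ENSMUST00000190780.6 overlaps the interval of ENSMUST00000055226.12, from 0.41 to 0.45, and ends below that of ENSMUST00000188894.6. These are intervals of unsigned sizes, so their overlap does not show whether the forms changed in the same direction. A difference in response between forms was not tested.

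By estimated level per kb, EDA was present in 77.5% of the RNA of the 5 long forms, EDB in 73.8% and the whole V region in 91.5%. The 5 forms share most of their exons, so these shares rest on how the quantification divided shared reads among them. Only 1 of the 5 long transcripts carries EDB. The shares are means over both groups and have no SD here. The 6th transcript, ENSMUST00000186940.6, ends after 7 exons and 1350 bases. Its level was 1097 (SD 1.73), and its within-group SD of 1.35 left a size of 2.30 short of the threshold (adjusted p = 0.181 in limma's moderated test).

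**Figure D3:**
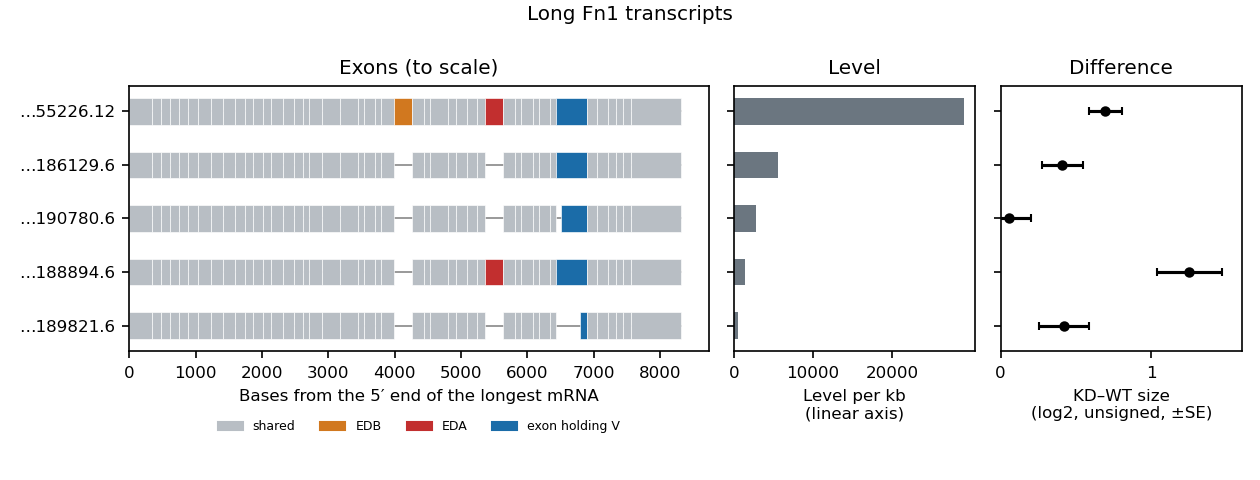
Left, exons of the 5 long *Fn1* transcripts, to scale along the longest mRNA, with EDB in orange, EDA in red and the exon that holds the V region in blue. Middle, level per kb. Right, unsigned size of the difference between KD and WT (log2) with 1 standard error, where the 2 forms with EDA stand at 0.69 and 1.25 and the 3 without it between 0.05 and 0.42.

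*Tnc* (chr4:63959785-64047015) had 2 tested transcripts. ENSMUST00000107377.9 held 81.7% of the summed level of the gene, with a level of 4117 (SD 0.27) and group means of 4834 and 3507. The groups differed by 0.46 (95% confidence interval 0.25 to 0.67, adjusted p = 0.0390 in limma's moderated test), which made up 95.8% of its variation over the libraries. ENSMUST00000107372.7 starts 26290 bases further downstream, at the next exon, and includes the alternative type III exon printed above. Its level was 921 (SD 0.08), with group means of 959 and 883 and a size of 0.12 with an interval up to 0.35. It was among the steadiest members over the 4 libraries, with an SD at the 4.83rd percentile of all transcripts, although the technical SD that the authors' quantification attached to it was 0.18.

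*Sparc* (chr11:55394500-55420080) encodes a collagen-binding calcium-binding protein and had 4 tested transcripts, of which 2 held almost all of its RNA. ENSMUST00000018737.12 had a level of 62820 (SD 0.14) and ENSMUST00000108858.7 a level of 36681 (SD 0.06). Their starts lie 182 bases apart within the first exon, and otherwise they differ by 3 bases at the start of a coding exon (chr11:55407277-55407279), shown here in capitals because little else tells the main forms apart.
Sparc exon start: ctggcagcccctCAGcagactgaagtt

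The form with the 3 bases had group means of 67364 and 58582, a size of 0.20 with an interval from −0.01 to 0.42. The form without them had group means of 37909 and 35493, a size of 0.10 with an interval up to 0.25, and its SD over the 4 libraries lay at the 2.36th percentile of all transcripts. Neither passed, with adjusted p-values of 0.195 and 0.359 in limma's moderated test. The minor transcripts ENSMUST00000216313.1 and ENSMUST00000213866.1 had levels of 439 and 3.25. Their SDs of 1.65 and 3.36 lay at the 94.0th and 98.8th percentile, and no difference of the size seen in *Fn1* was detectable in them.

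*Thbs2* (chr17:14665500-14694235) encodes a thrombospondin and had 1 tested transcript, with a level of 17188 (SD 0.32) and group means of 20096 and 14701. Its size of 0.45 was close to that of *Tnc*, but its within-group SD was 0.23 against 0.07 for the *Tnc* transcript that passed. The unadjusted p-value was 0.0400 and the adjusted p-value 0.155 in limma's moderated test.

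Of the elastic fibre genes, *Fbn1* (chr2:125300594-125506385) had 2 tested transcripts with coding sequences of the same length (8619 bases), whose mRNAs begin at different places. The main form, ENSMUST00000028633.12, had a level of 4015 (SD 0.18), group means of 4404 and 3661 and a size of 0.27 (95% confidence interval 0.01 to 0.53, adjusted p = 0.168 in limma's moderated test). ENSMUST00000103234.1 made up 4.36% of the summed level, with a level of 183 and a size of 0.46 whose interval ran from −0.63 to 1.55. *Eln*, which encodes the precursor of elastin, lies at chr5:134702593-134747323 and had a level of 7.10 (SD 0.30). Its group means were 8.27 and 6.08, and the interval of the difference reached 1.76, so that even a large difference was not detectable at this level.

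None of the 4 lysyl oxidase transcripts passed. *Lox* was the most abundant of the family. Its 2 tested transcripts have coding sequences of the same length (1233 bases) and begin at different places. Their levels were 39578 (ENSMUST00000171470.7, SD 0.15) and 29040 (ENSMUST00000025409.7, SD 0.26). Their group means were 40469 and 38706 for the former, and 30368 and 27771 for the latter. The sizes were 0.06 and 0.13, with intervals that reached 0.40 and 0.68. The difference between groups made up 6.48% and 8.06% of their variation over the libraries, so that nearly all of it lay within groups. This share was 98.6% for *Loxl2* and 89.9% for the *Sparc* transcript ENSMUST00000108858.7, neither of which passed. For *Loxl2* the within-group SD was 0.02, below the technical SD of 0.14 that the authors' quantification attached to it. For the *Sparc* transcript both SDs were 0.02. A high share alone thus did not set the transcripts that passed apart.

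*Loxl1* (chr9:58287738-58313186) encodes a family member that acts on elastin and had a level of 5293 (SD 0.11). Its group means were 5557 and 5042, a size of 0.14 with an interval up to 0.38. *Loxl2* (chr14:69609068-69695834), which acts on basement membrane collagen among other substrates, had a level of 86.0 (SD 0.17), group means of 95.2 and 77.6 and a size of 0.29 with an interval up to 0.76. The adjusted p-values of the 4 transcripts lay between 0.353 and 0.786 in limma's moderated test. Intervals this wide leave room for differences of the size seen in *Tnc* for 1 of the *Lox* transcripts and for *Loxl2*.

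A list of 76 other matrix genes, covering fibulins, laminins, small proteoglycans and the enzymes that modify collagen, was set beside these. Of its genes, 67 had tested transcripts, 121 in all, and 28 transcripts of 22 genes passed the threshold (23.1%, against 9.68% of all transcripts). At a level of at least 1000, 21 of 63 passed (33.3%), against 20.8% of all transcripts at that level. The median size was 0.41, against 0.35 over all transcripts, and at a level of at least 1000 it was 0.34 against 0.25. These shares are given as a description, without a test of the list. Among those that passed with a level of at least 100, *Ogn*, a small leucine-rich proteoglycan, had the largest size (1.66, standard error 0.11, level 1237). It was followed by *Thbs1* (1.55, level 35711), the thrombospondin related to *Thbs2*, then *Prelp* (group means of 591 and 208). Next came ENSMUST00000119084.1 (1.38, level 127), a minor transcript of *Thbs3*. The main *Thbs3* transcript, ENSMUST00000029682.10, also passed (0.95, level 2364). The adjusted p-values of all these transcripts lay between 0.0152 and 0.0400 in limma's moderated test. By summed level, the highest genes of the list were *Bgn*, *Serpinh1*, *P4hb* and *Efemp1*, from 97096 down to 40688. Of these only *Efemp1* had a transcript that passed. Per kb, the order was *Bgn* (42837), *Serpinh1* (30446), *Mgp* (21596), *Efemp1* (19974) and *P4hb* (16394).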

How the data were processed

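RNA-seq of NIH/3T3 cells was compared between 2 KD and 2 WT libraries, grouped by their labels, without covariates. Per the paper's methods, the authors removed adapters with BBDuk, quantified transcripts with Kallisto and modelled them in Sleuth. The transcriptome index is not given in the sources used here. The deposited table of transcripts holds summaries over the 4 libraries on the natural log scale: the authors' mean, the variance over libraries, the technical variance of the quantification and the variance left within groups. The scale is not named in the sources and was taken from Sleuth's default, normalised estimated counts with 0.5 added before the log. The base of the log was checked on the slope of the log technical variance against the mean. This slope used the 5th percentile of the technical variance in 10 bins, over means above 5. It was −0.99, near the slope of −1 that counting error gives on natural logs. At such means the check does not bear on the added 0.5 or on the normalisation. The authors' effects, test statistics, p-values and q-values, which also fill the gene table, are their own comparison and were not used.

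The sum of squares between groups was taken as 3 times the variance over libraries minus 2 times the variance within groups, and its square root as the unsigned difference. This size is fixed by the same model as the authors' effect and equals its magnitude, so it is no independent estimate, and it carries no direction. Variances were moderated with limma 3.58.1 (R 4.3.3), with a trend on the mean and 4.66 degrees of freedom in total, and p-values were adjusted by Benjamini-Hochberg over all transcripts at 0.05. The computation was run on simulated data whose variances were drawn from the prior fitted to these data. That run checks the arithmetic and cannot show whether the prior suits these libraries. The series' design describes 3 independent transfections, while 2 libraries per group were analysed here, and which transfection a library came from is not given, so p-values measure the spread between these libraries. The 95% confidence intervals rest on the moderated variance. They were placed evenly around the unsigned size, so their lower ends can be negative although the size itself cannot.

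The members, the list of other matrix genes and the tests were chosen with earlier results of these data known. Named genes are all members, *Setd2*, and of the list the 4 called transcripts with the largest size at a level of at least 100 and the 4 genes with the highest summed level. *Mgp* is named in addition for its level per kb. Positions come from GENCODE M21, which holds 98.6% of the transcripts in the same version.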

Additional observations from a re-analysis of the deposited data

How the results depend on the processing

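The count of transcripts past the threshold depended on how the variances were moderated. Without a trend of the variance on expression, 127 of all transcripts passed, 0 of the matrix transcripts and 0 of the other matrix transcripts, and *Setd2*, with its size of 1.99, had an adjusted p-value of 0.0537. In an ordinary F test without moderation, 10 of all transcripts passed, again 0 in both lists, and *Setd2* had an adjusted p-value of 0.103. In these settings the adjusted p-values of the 3 matrix transcripts that had passed lay between 0.144 and 0.255, and the sizes stay as they are because the settings change the test alone. With a robust prior variance all 20 matrix transcripts kept their side of the threshold, as did all 17 that were tested when the test was limited to a level of at least 100, which gave 4965 transcripts of 18808. Taking the most abundant transcript in place of the sum moved the levels of *Fn1*, *Tnc*, *Sparc* and *Lox*, and leaving the added 0.5 in moved no level beyond its spread. No paired analysis was possible because values of single libraries were not analysed here, and for the same reason no library was left out in turn. The intervals of matrix transcripts with a level of at least 1000 had a median half-width of 0.34 on the log2 scale, which limits what could be detected.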
